A study of Homo sapiens with 4 samples.

Results

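Epithelial-mesenchymal transition (EMT) is followed here through 10 genes: the transcription factors SNAI1, SNAI2, TWIST1, ZEB1 and ZEB2, and the mesenchymal markers VIM, CDH2, FN1, THY1 and S100A4. They were taken by name from the array's probe annotation, where a probe set had to carry that symbol alone. All 10 were found among 18377 measured genes, and ZEB2 had 2 probe sets. RNA came from A549 and H441, human lung adenocarcinoma lines, transfected by lipofection with a non-targeting siRNA (siNTC) or with siTAZ, which is directed at TAZ, the co-activator encoded by WWTR1. Cells were harvested at 48 h, and each of the 4 combinations (A549 siNTC, A549 siTAZ, H441 siNTC, H441 siTAZ) gave 1 Affymetrix whole-transcript array. The labels used here name no siRNA sequence. The design asks what silencing TAZ does to expression in these lines.

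In an EMT, epithelial cells lose junctions and apical polarity and gain the motile, matrix-depositing features of mesenchymal cells. The snail (SNAI1, SNAI2) and ZEB zinc-finger proteins repress epithelial genes such as CDH1 through E-box elements, and TWIST1, a basic helix-loop-helix factor, acts in the same programme. The miR-200 family of microRNAs targets ZEB1 and ZEB2 messages, while the ZEB proteins repress the miR-200 genes, so that each side restrains the other. In lung adenocarcinoma, vimentin and N-cadherin are used to place cell lines along the range from epithelial to mesenchymal.

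The miR-200 sequences are shown because their seeds, bases 2 to 8 in capitals, are what pairs with ZEB messages. The family falls into a pair of seed groups. On GRCh38.p14 (RefSeq, plus strand) the mature hsa-miR-200b-3p lies at chr1:1167160-1167181, hsa-miR-200a-3p at chr1:1167916-1167937, hsa-miR-429 at chr1:1169055-1169076, hsa-miR-200c-3p at chr12:6963742-6963764 and hsa-miR-141-3p at chr12:6964155-6964176. The group with seed AAUACUG holds:

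hsa-miR-200b-3p: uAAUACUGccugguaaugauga

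hsa-miR-200c-3p: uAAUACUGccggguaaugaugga

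hsa-miR-429: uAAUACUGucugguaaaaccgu

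The group with seed AACACUG holds:

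hsa-miR-200a-3p: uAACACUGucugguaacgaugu

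hsa-miR-141-3p: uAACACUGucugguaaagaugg

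Signals are given on the log2 scale, where a difference of 1 is a doubling. A gene was treated as dim where its signal lay below 6.13, the median of the whole table, and signals of different genes are not compared with each other because each probe set has its own efficiency. Array medians were 6.05 and 6.06 in A549 and 6.17 and 6.25 in H441. WWTR1 fell with siTAZ, to 19.0% of its control signal in A549 and 22.7% in H441 (-2.27 ± 0.12 SE, limma adjusted p = 1.5e-11). YAP1, its paralog, had 9.23 and 9.44 in A549 and 10.46 and 10.55 in H441 (adjusted p = 0.65). The lines were checked against marker genes. All 6 epithelial markers (EPCAM, CDH1 and keratins 7, 8, 18 and 19) reached the table median on all 4 arrays, with summed signals of 62.1 to 63.0 in A549 and 76.4 to 77.5 in H441. Of 7 lung lineage markers, 5 reached it on each H441 array and 1 or 2 on the A549 arrays, where NKX2-1, the lung lineage factor, was at 5.01 to 5.02. The list did not go 1 way: of 6 tested, 4 were called lower in A549 and 2 higher, against 52.8% and 19.0% of all tested genes. FOXA2 had 8.48 and 8.72 in A549 against 6.56 and 6.92 in H441, and SFTPC 6.36 and 5.98 against 5.84 and 5.71. Of 9 fibroblast markers, 2 reached it in A549 (summed signals 52.1 to 52.6) and 4 or 5 in H441 (55.1 to 55.7), and DCN, PDGFRA, PDGFRB and FAP were below it on every array. Of 5 endothelial markers only KDR reached it, in H441 (sums 25.5 to 25.7 in A549 and 28.9 to 29.3 in H441), and of 5 leukocyte markers only CD14 and CD68 did (30.1 to 30.9 and 30.8 to 30.9), with PTPRC, CD3E and LYZ below it on every array.

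After TAZ silencing, the transcription factors and most of the mesenchymal markers stayed near their control signals, and THY1 was the only one of the 9 tested genes to pass the test over both lines. The test was a limma fit to all 4 arrays with cell line as a block, run on the 12740 genes that reached the table median on at least 1 array, and ZEB2 was too dim to enter. Calls were made below 0.05 after Benjamini-Hochberg adjustment over those genes. THY1 entered the test only through its A549 siTAZ array, where it was highest, so its call is not independent of the filter. The test called 1 of 9 members and 2.47% of all tested genes, 1.19% as higher with siTAZ and 1.29% as lower (151 and 164 genes, or 123 and 277 after median centring), and 2 members against 13.2% of all genes had an unadjusted p under 0.05. The median difference of the 9 was 0.01, and that of all tested genes 0.0095. The fit has 1 residual degree of freedom, the disagreement between the lines' responses, and borrows the rest from all genes, so its standard errors (SE) mostly describe the average gene.

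**Figure D1:**
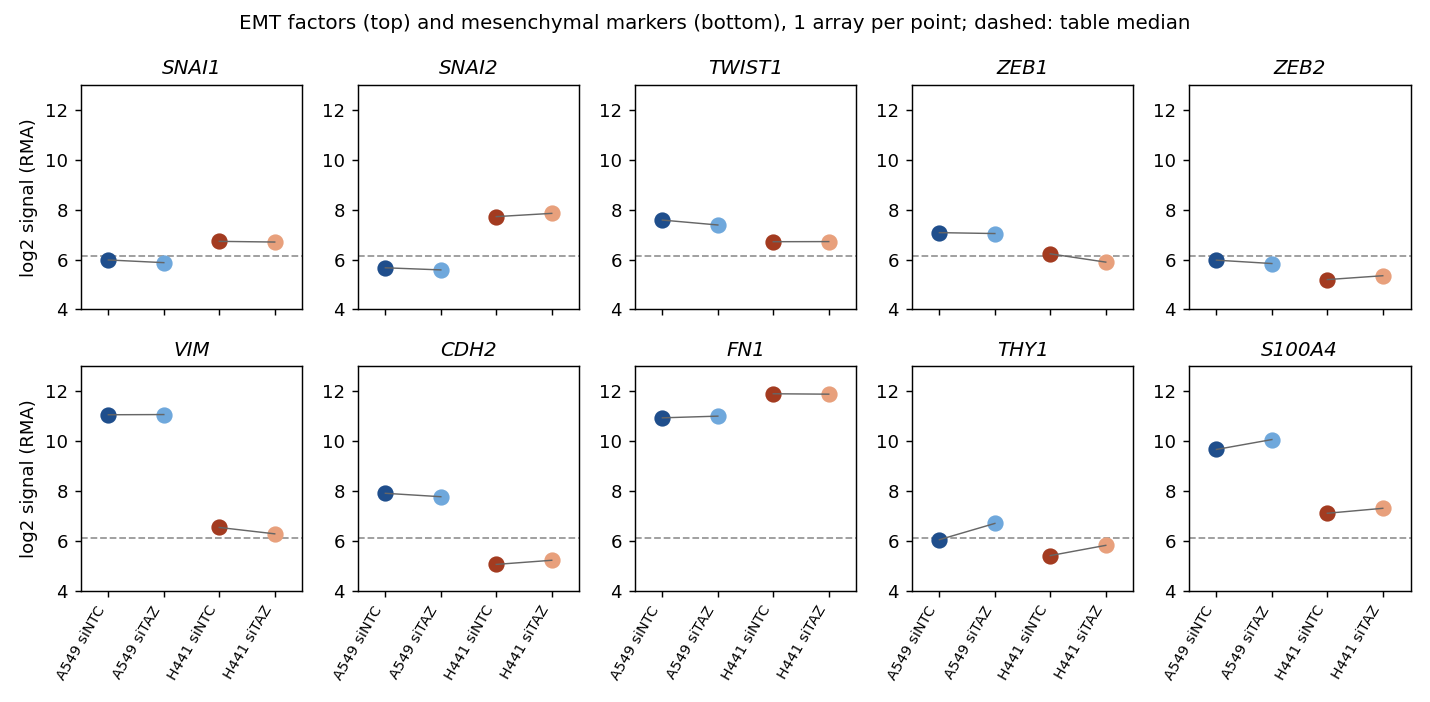
Log2 signal of each of the 10 genes (vertical axis) on the A549 siNTC, A549 siTAZ, H441 siNTC and H441 siTAZ arrays, 1 array per point, with lines joining the arrays of a cell line and a dashed line at the table median of 6.13. The step between the line means, which are not drawn, exceeds both siTAZ differences for all 10 genes. For THY1 the step between the siNTC arrays, 0.639, is just below its A549 siTAZ difference of 0.651. THY1 has the steepest rise within a line.

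The snail factors showed little difference. SNAI1, a repressor of CDH1, had signals of 5.98 with siNTC and 5.87 with siTAZ in A549, and 6.73 and 6.70 in H441. Both A549 values were dim, and the fitted difference was -0.07 ± 0.12 (SE, limma adjusted p = 0.88). SNAI2, or slug, the other snail factor, was dim in A549 at 5.67 and 5.58, and had 7.72 and 7.85 in H441. Its differences therefore had opposite signs, -0.09 and 0.13, and the fitted value was 0.02 ± 0.12 (adjusted p = 0.96), which became negative after median centring or cyclic loess.

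TWIST1 had 7.58 and 7.38 in A549 with siNTC and siTAZ, and 6.71 and 6.72 in H441. The A549 difference of -0.20 had no counterpart in H441, where it was 0.0048, and the fitted value was -0.10 ± 0.12 (limma adjusted p = 0.82). ZEB1 had 7.08 and 7.04 in A549, and 6.23 and 5.90 in H441. Here the larger difference was in H441, -0.33 or 1.26-fold lower, from a signal just above the table median to below it, and the fit gave -0.18 ± 0.12 (limma adjusted p = 0.57). ZEB2, its paralog, was dim throughout, at 5.98 and 5.84 in A549 and 5.20 and 5.35 in H441. Its second probe set, at 4.39 to 4.57, was dim as well, and without the filter on dim genes ZEB2 had a fitted difference of 0.0097 ± 0.11 (limma adjusted p = 0.99).

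Among the markers, VIM, which encodes the intermediate filament vimentin, had 11.06 and 11.07 in A549 with siNTC and siTAZ, and 6.54 and 6.29 in H441. The A549 arrays were nearly equal, and in H441 the siTAZ array was 1.19-fold lower, giving a fitted -0.12 ± 0.12 (limma adjusted p = 0.74). CDH2, N-cadherin, had 7.91 and 7.78 in A549 and dim values of 5.06 and 5.23 in H441. The differences of -0.14 and 0.17 nearly cancelled in the fit, at 0.01 ± 0.12 (limma adjusted p = 0.98), with a negative sign after median centring, quantile normalization or cyclic loess. FN1, the matrix glycoprotein fibronectin, had 10.94 and 11.01 in A549 and 11.90 and 11.89 in H441. Its fitted difference was 0.03 ± 0.12 (adjusted p = 0.96), and -0.02 after median centring.

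THY1, a glycosylphosphatidylinositol-anchored surface glycoprotein (CD90) found on fibroblasts and other mesenchymal cells, rose. The A549 arrays read 6.05 with siNTC and 6.70 with siTAZ, and the H441 arrays 5.41 and 5.83. Both siTAZ arrays were above the control array of their line, but only the A549 siTAZ array was above the table median, so folds of this gene are compressed. That array alone brought THY1 into the test, so the filter leaned towards a higher value with siTAZ. The siTAZ signal was 1.57-fold higher in A549 and 1.33-fold higher in H441, and the fitted difference was 0.53 ± 0.12 (SE, higher in 2 of 2 lines, limma adjusted p = 0.014). By size it ranked 179 of 12740 genes. The call was lost after quantile normalization (adjusted p = 0.068), after cyclic loess (0.15) and without the filter on dim genes (0.077), and with cell line left out of the fit (adjusted p = 1), and THY1 was too dim to be tested at a stricter filter. Where it was tested, its fitted value ran from 0.48 to 0.53. Beside it, the fibroblast collagen gene COL1A1 had 7.31 and 7.72 in A549 and 8.28 and 8.71 in H441 (0.42 ± 0.12 SE, limma adjusted p = 0.054, 0.013 with an eBayes trend and 0.048 at the stricter filter). Of the other fibroblast markers that were tested, LUM had 7.46 and 6.98 in H441 (fitted -0.17), and ACTA2 and COL3A1 had fitted differences of 0.07 and 0.08, the latter the median of the 5 tested. A further 4 of the 9 were dim on every array. The part of such markers in the THY1 result was not tested. In array data of this kind, a change in the share of cells expressing a gene and a change in RNA per cell cannot be told apart.

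S100A4, a calcium-binding protein also known as fibroblast-specific protein, had 9.67 and 10.07 in A549 and 7.11 and 7.31 in H441. Both lines had the higher value with siTAZ, by 0.40 and 0.20, and the fitted 0.30 ± 0.12 did not pass (unadjusted p = 0.019, limma adjusted p = 0.24). For the 8 tested genes that did not pass, the 95% intervals of the fit lay between -0.43, reached by ZEB1, and 0.54, reached by S100A4, and without S100A4 the highest limit was 0.27.

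**Figure D2:**
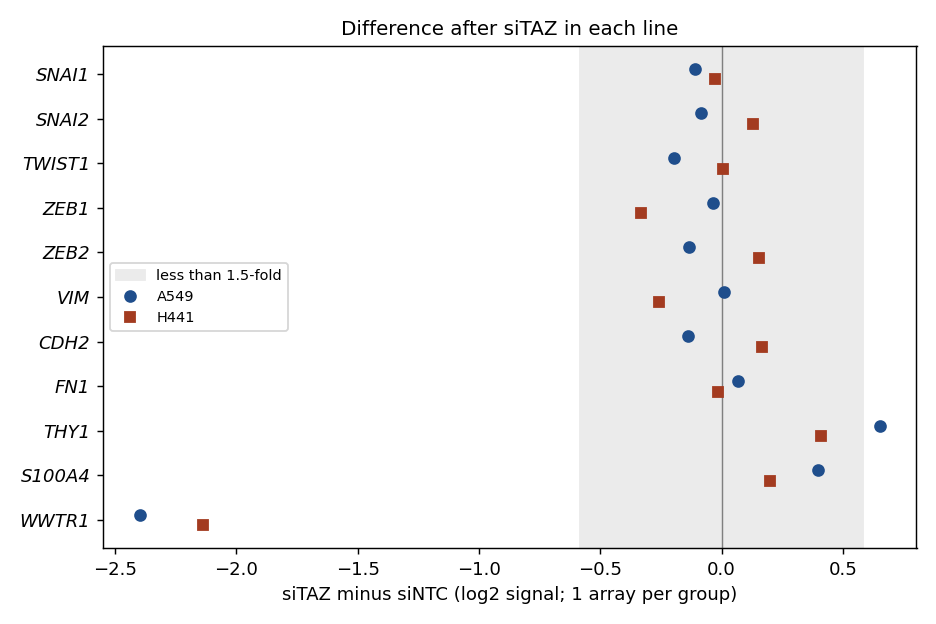
The siTAZ minus siNTC difference in log2 signal (horizontal axis) in A549 (circles) and H441 (squares), 1 array per group, for the 10 genes and for WWTR1, with the range under 1.5-fold in grey. Apart from WWTR1, only THY1 in A549, at 0.65, lies outside the grey range.

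Within a line, the differences have no replicate. In A549, 7 of the 10 genes reached the table median on at least 1 of the line's arrays, and 1 of these, THY1, was at least 1.5-fold apart, against 2.83% of all genes counted that way. In H441 7 genes were counted and 0 were 1.5-fold apart, against 1.45%. At 2-fold the counts were 0 in both lines, against 0.421% in A549 and 0.042% in H441. The sign of the difference was opposite in the lines for 6 of the 10 genes, against 42.3% of all genes. Differences smaller than 0.2 in size were found for 8 of the 10 genes in A549 and 7 in H441, with genes dim in that line included. The shares among all counted genes, which leave out genes dim in the line, were 69.1% and 67.3%, so the filters are not alike. No test of a difference in response between A549 and H441 was possible, because an interaction term would use up all 4 arrays.

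Most of these genes differed far more between the lines than after siTAZ, though for THY1 the line difference of 0.76 was close to its siTAZ difference of 0.65 in A549. For all 10, both arrays of 1 line were above both arrays of the other, against 79.2% of all genes, and this held for all 9 tested members, against 83.8% of tested genes, while the step between the line means exceeded either siTAZ difference. The line term of the limma fit called all 9 tested members, against 71.9% of all tested genes, so the count itself does not set them apart. The 2 arrays of a line differ in siRNA and are not labelled as separate cultures of 1 condition, so this test compares these arrays, not repeated cultures. By size, 4 of the 10 genes were at least 4-fold apart, against 6.27% of tested genes, and the same 4 at least 2-fold, against 23.7%. Over all tested genes the median A549 minus H441 difference was -0.31, and it moved to -0.15 after median centring, -0.0049 after quantile normalization and 0.01 after cyclic loess. With that shift the calls moved from 2425 higher and 6733 lower in A549 to 4068 and 4141 after quantile normalization and 4074 and 3984 after cyclic loess. All 9 members kept their sign and their call under those scalings.

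The largest differences on the A549 side were those of VIM, CDH2 and S100A4. VIM was 25.1-fold higher in A549 (mean signals 11.07 and 6.42, difference 4.65 ± 0.12 SE, limma adjusted p = 2.1e-20) and ranked 69 of 12740 genes by size. The step was 4.52 between the siNTC arrays and 4.78 between the siTAZ arrays. CDH2 was 6.50-fold higher (2.70 ± 0.12 SE), with both H441 arrays dim, and S100A4 was 6.31-fold higher (2.66 ± 0.12 SE). These 3 markers were each above the table median on both A549 arrays, and no A549 value came within 2 log2 units of an H441 value.

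Of the factors, ZEB1 was higher in A549 by 0.998 ± 0.12 (SE, limma adjusted p = 9.1e-08) and TWIST1 1.70-fold (0.77 ± 0.12 SE, adjusted p = 3.8e-06). After cyclic loess these differences were 1.23 and 1.05. ZEB2 was 0.63 higher in A549 but dim on all 4 arrays, and its second probe set differed by -0.13. THY1 was 1.69-fold higher in A549 (0.76 ± 0.12 SE), the narrowest separation of the 10, with 0.23 between the A549 siNTC and H441 siTAZ arrays.

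SNAI2, FN1 and SNAI1 were higher in H441. SNAI2 was 4.47-fold higher there (A549 minus H441 -2.16 ± 0.12 SE, limma adjusted p = 5.8e-14), with dim signals in A549. FN1 was 1.90-fold higher in H441 (-0.92 ± 0.12 SE) and SNAI1 1.72-fold (-0.79 ± 0.12 SE). The scaling bore most on FN1, which had -0.52 after quantile normalization. The 5 factors thus did not line up on 1 side: ZEB1, TWIST1 and the dim ZEB2 were higher in A549, and both snail factors in H441.

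**Figure D3:**
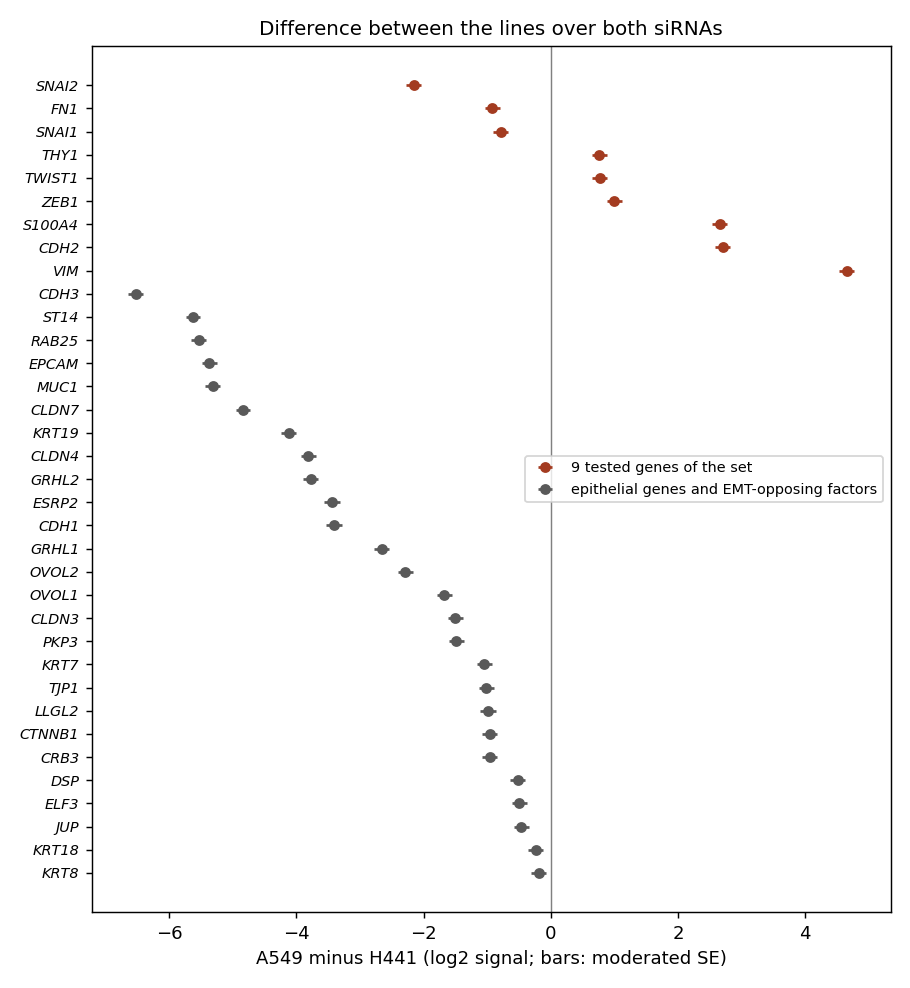
A549 minus H441 difference in log2 signal over both siRNAs (horizontal axis, bars show the moderated SE) for the 9 tested genes of the set and for 26 epithelial genes and EMT-opposing factors. The set runs from SNAI2 at -2.16 to VIM at 4.65, and all 26 epithelial genes lie below 0.

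Epithelial genes and EMT-opposing factors were mostly lower in A549. Any part of the EMT factors in this difference was not tested. Of 26 measured genes from a list of junction, keratin and EMT-opposing genes, 24 were called lower in A549 and 0 higher, against 52.8% and 19.0% of all tested genes, and 21 were called lower after quantile normalization or cyclic loess. Only 16 of the 26 reached the table median in A549, and the others entered the test through H441 alone. For those others the filter favoured a lower value in A549. The list's median was -1.98, and -1.75 after cyclic loess. CDH1, E-cadherin, had 8.68 and 8.96 in A549 and 12.27 and 12.20 in H441 (-3.41 ± 0.12 SE, limma adjusted p = 1.2e-17). EPCAM, an epithelial adhesion molecule, differed by -5.37, CDH3, P-cadherin, by -6.53, ST14, the protease matriptase, by -5.63, RAB25, an epithelial trafficking GTPase, by -5.54, and MUC1, a membrane mucin, by -5.32. CDH3, ST14 and RAB25 were dim on both A549 arrays (5.20 and 5.12, 5.33 and 5.38, 4.88 and 4.83). KRT8 and KRT18, the keratins of simple epithelia, were not called, with differences of -0.19 and -0.24. A549 arrays therefore carried CDH1 well above the table median together with high VIM.

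None of these 26 epithelial genes passed the siTAZ test, a count of 0 by limma, against 2.47% of all tested genes. At an unadjusted p below 0.05 there were 4 (15.4%, against 13.2%). For CDH1 the A549 difference was 0.28 and the H441 difference -0.07 (limma adjusted p = 0.80), and EPCAM 0.09 and -0.13 (adjusted p = 0.97). The values farthest from 0 were 0.41 and 0.27 for MUC1, -0.25 and -0.42 for KRT7, -0.43 and -0.18 for KRT8 and -0.32 and -0.19 for KRT18. With an eBayes trend these 4 genes were called, but that setting called 594 of all 12740 tested genes, against 315 in the main fit. None of the 16 counted in A549 or the 26 counted in H441 was 1.5-fold apart, against 2.83% and 1.45% of all genes counted that way.

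The miR-200 hairpins were dim. MIR200C was the only one to reach the table median, on a single array: it had 4.94 and 4.99 in A549 and 6.03 and 6.14 in H441 (-1.12 ± 0.12 SE, limma adjusted p = 8.2e-09), the opposite order to ZEB1. It fell below the filter and was not tested after median centring, quantile normalization or cyclic loess. MIR141, its neighbour on chromosome 12, had 4.69 and 4.71 in A549 and 5.63 and 5.60 in H441. MIR200A, MIR200B and MIR429, clustered on chromosome 1, had 4.75 and 4.93, 5.68 and 5.62, and 5.59 and 5.58 in A549, against 4.77 and 4.65, 5.92 and 5.92, and 6.01 and 5.93 in H441. A probe set over a hairpin does not measure the mature microRNA, and MIR200C had a siTAZ difference of 0.08 (adjusted p = 0.85).

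Promoter sequence was set beside these values using RefSeq windows (GRCh38.p14) of 250 bases before each annotated start. Of the 10 genes, 6 had windows there: VIM, CDH2, FN1, ZEB1, ZEB2 and S100A4. The E-box CAGGTG, on either strand (CACCTG), is the form bound by snail and ZEB proteins. It was present upstream of ZEB1 (2 of 7 windows) and S100A4, and absent from the windows of the other 4 genes. That is 2 of 6 genes (33.3%), against 21.5% of 15843 protein-coding genes, and 6 genes are too few to tell these apart. Of the 29 listed epithelial genes and EMT-opposing factors, only 14 had a window, and CDH1, EPCAM, CDH3, KRT18, KRT19 and ST14 were among those without. Of these 14, 9 held it (64.3%), against 21.5% of 15843 protein-coding genes: CLDN7, CRB3, DSP, ELF3, JUP, MUC1, OCLN, RAB25 and TJP1. The share does not cover the rest of the list. TEAD proteins, through which TAZ reaches DNA, bind sites with the core GGAATG, which was sought on both strands. It was found for 0 of the 6 genes, against 13.5% of 15843 protein-coding genes, and 6 genes are too few to tell these apart. By window it was in 0 of 13, of which 7 belong to ZEB1, against 10.5% of 22199 windows of protein-coding genes. THY1, the member called after siTAZ, had no window. A match is a description of sequence and shows no binding.

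The following windows show these E-boxes in capitals, 5′ to 3′ along the gene. ZEB1 and S100A4 are the members with a match, and CLDN7 and CRB3, chosen after the counts were seen, are epithelial genes with several. CLDN7, a claudin of tight junctions, differed by -4.84 between A549 and H441, and CRB3, an apical polarity protein, by -0.96. CLDN7 was dim on both A549 arrays. Another ZEB1 window, chr10:31318966-31319215, holds matches 242 and 85 bases before its start and is not shown. The ZEB1 window shown is chr10:31318167-31318416 on the plus strand.

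ZEB1: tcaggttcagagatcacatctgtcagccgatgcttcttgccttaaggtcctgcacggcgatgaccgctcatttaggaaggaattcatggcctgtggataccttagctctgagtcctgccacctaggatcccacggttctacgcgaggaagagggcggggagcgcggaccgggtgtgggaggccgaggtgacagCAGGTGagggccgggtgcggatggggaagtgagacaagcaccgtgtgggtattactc

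The S100A4 window is chr1:153545807-153546056 on the minus strand.

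S100A4: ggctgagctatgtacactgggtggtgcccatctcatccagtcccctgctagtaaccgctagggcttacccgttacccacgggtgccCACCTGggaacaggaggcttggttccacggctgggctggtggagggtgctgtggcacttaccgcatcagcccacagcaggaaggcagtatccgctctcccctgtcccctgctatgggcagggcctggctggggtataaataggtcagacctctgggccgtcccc

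The CLDN7 window is chr17:7262479-7262728 on the minus strand.

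CLDN7: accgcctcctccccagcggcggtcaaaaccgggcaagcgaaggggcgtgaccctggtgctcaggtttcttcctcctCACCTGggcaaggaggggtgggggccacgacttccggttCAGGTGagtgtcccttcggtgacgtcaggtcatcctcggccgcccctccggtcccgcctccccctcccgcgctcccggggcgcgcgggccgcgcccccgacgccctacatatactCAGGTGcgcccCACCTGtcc

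The CRB3 window is chr19:6464021-6464270 on the plus strand.

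CRB3: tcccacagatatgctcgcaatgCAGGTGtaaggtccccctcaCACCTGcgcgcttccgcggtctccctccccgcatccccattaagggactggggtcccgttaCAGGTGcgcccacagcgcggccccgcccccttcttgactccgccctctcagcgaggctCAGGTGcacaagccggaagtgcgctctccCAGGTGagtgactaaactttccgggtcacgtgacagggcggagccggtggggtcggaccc

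The rest of the EMT programme was followed through further lists. Of 14 tested EMT-linked factors outside the 10 genes, 0 passed the siTAZ test, against 2.47% of all tested genes. An unadjusted p under 0.05 was found for 2, against 13.2%, and the median difference was 0.09. The farthest were SOX4 (-0.28 in A549 and 0.40 in H441), GSC (0.40 and 0.19), ID3 (0.18 and 0.33) and ID2 (0.37 and 0.06). ID2 and ID3, inhibitors of helix-loop-helix factors such as TWIST1, were higher in A549 by 1.76 and 2.93, as was TCF4, an E protein, by 1.56, and SOX4 was lower there (A549 minus H441 -0.73). ID2 and TCF4 were dim on both H441 arrays. In all, 5 of the 14 were called higher and 3 lower in A549, against 19.0% and 52.8% of all tested genes. After quantile normalization 9 and 0 were, where all tested genes gave 4068 and 4141.

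Of 25 tested mesenchymal and matrix genes, 0 passed the siTAZ test, against 2.47% of all tested genes. An unadjusted p under 0.05 was found for 5, against 13.2%. A positive fitted difference was found for 18 of the 25, against 6691 of all 12740, with a median of 0.12 that became 0.08 after median centring. COL1A1 came nearest and was called at the stricter filter. With an eBayes trend 3 were called, COL1A1, NT5E and AXL, where 594 of all 12740 tested genes were. NT5E (CD73) had 0.97 in A549 and -0.18 in H441, CDH11, a mesenchymal cadherin, -0.15 and 0.64, and AXL, a receptor tyrosine kinase, -0.06 and -0.72. Between the lines this list went both ways, with 10 genes called higher and 12 lower in A549, against 19.0% and 52.8% of all tested genes, or 12 and 9 after quantile normalization. CD44, a hyaluronan receptor, was higher in A549 by 5.65, COL5A2 by 4.60 and FSTL1 by 2.85, and all of them were dim on both H441 arrays. But CDH11 differed by -4.19: its signals were 5.31 and 5.16 in A549, both dim, and 9.10 and 9.75 in H441. The classical cadherins thus split, with CDH2 on the A549 side and CDH1, CDH3 and CDH11 on the H441 side.

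**Figure D4:**
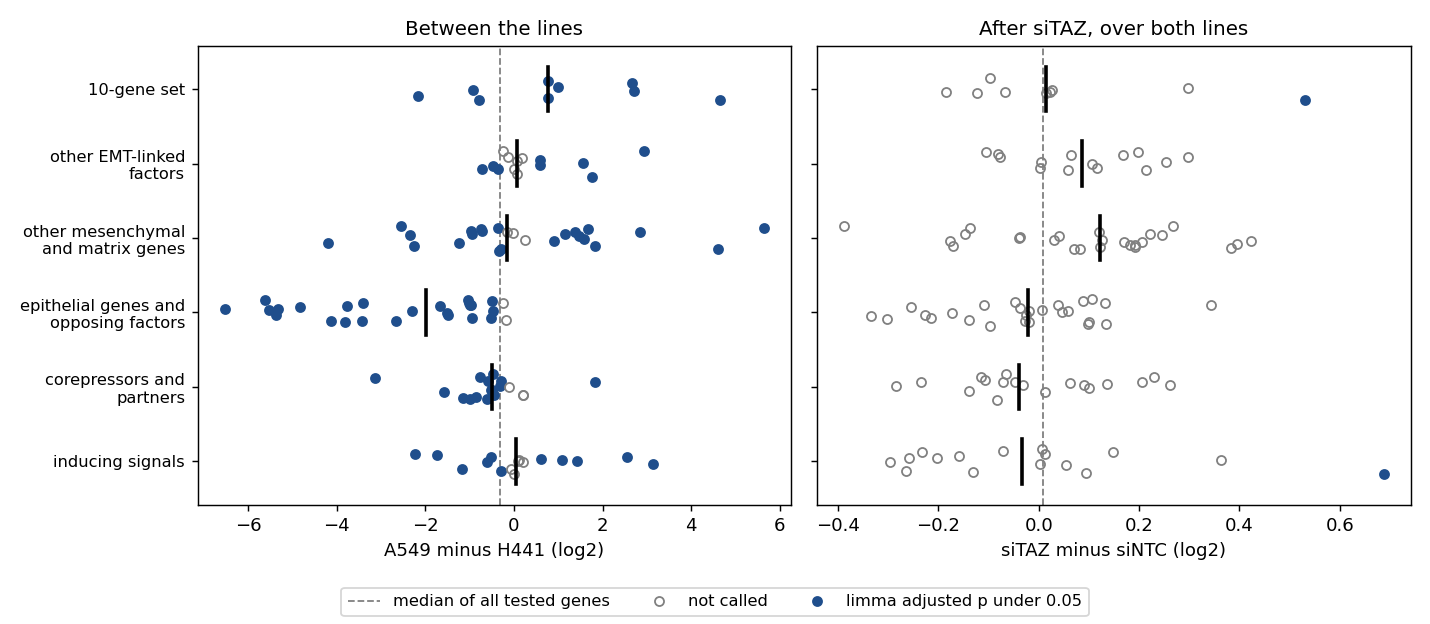
Fitted log2 differences between the lines (left, A549 minus H441) and after siTAZ (right) for the tested genes of 6 lists, 1 point per gene, filled where limma adjusted p was under 0.05, with list medians as black bars and the median of all tested genes dashed. Between the lines the epithelial list is centred at -1.98, and after siTAZ only THY1 and TGFBR1 are filled.

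Among signals that induce EMT, TGFBR1, the type I TGF-beta receptor, rose after siTAZ, from 7.55 to 8.35 in A549 and from 8.18 to 8.76 in H441 (0.69 ± 0.12 SE, limma adjusted p = 0.0014). It was the only call among 16 tested genes, against 2.47% of all tested genes, and 5 of the 16 had an unadjusted p under 0.05, against 13.2%. The TGFBR1 call was lost after cyclic loess (adjusted p = 0.061) and without cell line in the fit. TGFBR2, its type II partner, had 0.47 and 0.25 (adjusted p = 0.12), the ligand TGFB2 -0.19 and -0.41 (0.24), the receptor FGFR1 -0.58 and 0.11 (0.50) and the receptor MET 0.38 and -0.19 (0.84). FGFR1 and TGFB2 were higher in A549 by 3.14 and 2.55, while MET and the cytokine IL6 differed by -2.23 and -1.74. FGFR1 was dim on both H441 arrays and IL6 on both A549 arrays. Of 18 corepressors and regulators of the EMT factors, 0 passed the siTAZ test, again against 2.47%. An unadjusted p under 0.05 was found for 2, again against 13.2%. LOXL2, a lysyl oxidase that acts with SNAI1, had -0.08 and 0.49, BTRC, a ubiquitin ligase subunit that marks SNAI1 for degradation, -0.29 and -0.28, the deacetylase HDAC1 0.49 and 0.03, and the histone methyltransferase EZH2 -0.29 and -0.18. SMARCA4, a chromatin remodelling ATPase, differed by -3.13 between A549 and H441, EZH2 by -1.58, HDAC1 by -1.15 and LOXL2 by 1.84.

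Genes with a profile like that of a member were sought among the 12740 by Euclidean distance between profiles centred on their means over the 4 arrays. Nearest to VIM were LAMB1, a laminin chain, at 0.15 log2 units, CYBRD1 at 0.24 and ANO6 at 0.28. Nearest to ZEB1 were UBE2S at 0.01, DDX56 at 0.03 and PCM1 at 0.05, and nearest to THY1 were HHIPL2 at 0.09, CD99L2 at 0.13 and LPGAT1 at 0.14. With 4 arrays many genes share such a profile, and the distances only describe these arrays.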

How the data were processed

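The authors deposited 1 log2 signal per probe set and array, produced by RMA according to the notes on processing. No label states the RMA version or which arrays it was run over, and the log2 scale was read from the values (4.20 to 14.83). RMA compresses differences of dim probe sets.

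Of 28869 probe sets, 19310 had 1 gene symbol in the platform annotation, 1752 several and 7807 none. For the 685 genes with several probe sets, the probe set with the highest mean was used, leaving 18377 genes. limma 3.58.1 in R 4.3.3 (lmFit, eBayes, two-sided) was fitted to the genes whose highest value reached the table median, with terms for siRNA and cell line. The code was first run on simulated arrays, where it recovered 98% of 200 genes changed by 0.6. Those arrays had the same spread for every gene, the same effect in both lines and no scaling shift. The run therefore checks the code and cannot vouch for the calls in these data. The prior was worth 22.3 degrees of freedom.

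All 10 genes are named whatever their values. From each other list, every gene called after siTAZ is named, with up to 4 more having the largest siTAZ differences by size, averaged over the lines, and up to 4 with the largest difference between lines. CDH1 and EPCAM are always named, with WWTR1, YAP1 and the 3 nearest genes of VIM, ZEB1 and THY1. Cell type markers are given by counts, and those named, like CLDN7, CRB3 and MIR141, with the other hairpins, were chosen after their values were seen. Genes and lists were chosen with earlier results of these data known. Listed genes without a probe set of their single symbol have no signal here, and OCLN, one of them, enters only the promoter counts. With 1 array per group, the number of arrays limits every value.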

Additional observations from a re-analysis of the deposited data

Results flagged for a closer look

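In 6 of the 10 genes the siTAZ difference had opposite signs in the lines, with 1 array per group, as did 42.3% of all 18377 genes. The difference between the lines was not tested. SNAI2 had -0.085 in A549 and 0.13 in H441, TWIST1 -0.20 and 0.0048, and ZEB2 -0.14 and 0.15. Among the markers, VIM had 0.0080 and -0.26, CDH2 -0.14 and 0.17, and FN1 0.068 and -0.016. Every one of these is under 1.5-fold. Other scalings took TWIST1 in H441 to as low as -0.079, VIM in A549 to -0.0017 and FN1 in H441 to between -0.10 and 0.067.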

How the results depend on the processing

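The difference between the lines kept its direction and its call for all 9 tested members under every alternative in which they were tested. The stricter filter, at the 60th percentile of the table, tested 7 of the 10 genes. The siTAZ call of THY1 was less stable, and 0 members were called after quantile normalization, after cyclic loess, without the dim-gene filter, at the stricter filter or without cell line in the fit. At an unadjusted p under 0.05 these held 2, 2, 2, 1 and 0 members. The siTAZ difference of SNAI2 turned to -0.024 after median centring and -0.0018 after cyclic loess, that of CDH2 to -0.033 after median centring, -0.027 after quantile normalization and -0.016 after cyclic loess, and that of FN1 to -0.021 after median centring. WWTR1, at -2.27 in every fit on the values as deposited, lost its siTAZ call only without cell line in the fit.

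Over all genes, the 315 siTAZ calls (151 higher, 164 lower) became 142 (75 and 67) after quantile normalization, 20 (9 and 11) after cyclic loess, 92 (47 and 45) without the filter and 594 (278 and 316) with an eBayes trend. Without cell line in the limma fit 0 genes were called, higher or lower, and 11 had an unadjusted p under 0.05. The line difference is then part of the residual spread. Median centring gave 123 higher and 277 lower. The calls between the lines, 2425 higher and 6733 lower in A549, became 4068 and 4141 after quantile normalization and 4074 and 3984 after cyclic loess. The siTAZ fit is itself paired by cell line, with 1 pair of arrays per line. Leaving out an array was not possible with 1 per group.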
